A study of Mus musculus with 6 samples.

Results

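The genes described here encode PHF21B, its close paralog PHF21A and the LSD1-CoREST complex. They were the 9 genes *Phf21b*, *Phf21a*, *Kdm1a*, *Rcor1*, *Rcor2*, *Rcor3*, *Hdac1*, *Hdac2* and *Hmg20b*, taken by symbol from 14477 genes listed in the deposited expression matrix, and all 9 were listed. RNA was sequenced from the hippocampus of 3 *Phf21b*Δ4/Δ4 mice and 3 *Phf21b*+/+ mice, all at baseline and without treatment. The labels number the former 2, 3 and 6 and the latter 5, 7 and 8, and values of single mice are given in that order throughout. The *Phf21b*Δ4/Δ4 line carried a CRISPR/Cas9 deletion in exon 4 of *Phf21b* in the whole body, on a C57BL/6J background, and the *Phf21b*+/+ mice carried the intact gene. The study describes the line as having decreased, not absent, PHF21B, and gives an age of 2 to 6 months for its mice in general. The age, sex and dissection of each of these 6 mice are not given in the sources used here. The comparison asks whether the level of *Phf21b* RNA, and of the RNA of *Phf21a* and the other LSD1-CoREST genes, differed between the genotypes.

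LSD1, the product of *Kdm1a*, removes methyl groups from lysine 4 of histone H3 and needs a CoREST scaffold to act on nucleosomes. The CoREST scaffolds (*Rcor1*, *Rcor2* and *Rcor3*) hold LSD1 together with the histone deacetylases HDAC1 and HDAC2, and PHF21A (also called BHC80) and HMG20B (BRAF35) are further subunits of the same assembly. PHF21A reads histone H3 that is unmethylated at lysine 4 through its PHD finger, a fold in which cysteines and a histidine hold zinc. The transcription factor REST recruits CoREST to neuronal genes, which are held silent in this way outside neurons.

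*Phf21b* lay on chr15:84785381-84856049 (GRCm38, minus strand, ENSMUSG00000016624.15). In its transcript Phf21b-203, 3639 bp long with 487 codons before the stop, exon 4 spanned chr15:84804760-84805110 and was coding throughout. Its 351 bp held codons 72 to 188, a whole number of codons, and 62.7% of its bases were G or C. Bases 26 to 325 of this exon (chr15:84804786-84805085, minus strand, sequence from GENCODE M21) are printed because they lie within the exon that the CRISPR guides were designed to disrupt.
Phf21b exon 4, central part: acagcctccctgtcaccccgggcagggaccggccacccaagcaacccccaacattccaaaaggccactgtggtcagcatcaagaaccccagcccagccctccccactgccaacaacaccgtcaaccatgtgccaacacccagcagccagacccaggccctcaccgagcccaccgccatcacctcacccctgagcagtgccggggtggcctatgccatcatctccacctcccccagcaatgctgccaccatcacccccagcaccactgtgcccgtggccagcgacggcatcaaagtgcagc
Exon 4 held 0 of the 9 cysteine codons of the transcript. Exon 10 (chr15:84791783-84791941, minus strand, codons 302 to 354) held 7 of them, and exons 9 and 13 held 1 each. Exon 10 is printed as the cysteine-rich stretch, with the cysteine codons in capitals.
Phf21b exon 10: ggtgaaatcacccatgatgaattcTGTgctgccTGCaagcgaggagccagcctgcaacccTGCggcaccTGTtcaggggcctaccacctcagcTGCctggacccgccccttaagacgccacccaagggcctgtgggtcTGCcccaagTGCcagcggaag
Exon 4 made up 9.65% of this transcript and 8.23% of the merged exons of the gene. A transcript that lost all of exon 4 and was otherwise as abundant would give a log2 change of -0.15. The paper describes a deletion of only part of exon 4 that puts the reading frame out. The value is thus for a larger loss of bases than that of the line. Reads of exon 4 and of the other exons were not separate in the deposited matrix, so every *Phf21b* value below is for the gene as a whole.

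The libraries held 20495605 to 24881257 reads on listed genes, so that 3 reads corresponded to 0.127 to 0.143 CPM, the unit of reads scaled to a common effective library size. The genotypes and single libraries stood apart in genes of neighbouring brain regions. Here and below, genes that fell or rose passed an FDR under 0.1 and a 1.3-fold change by limma, terms explained with *Phf21b*. Across all genes 0.663% fell in this sense. All *Phf21b*Δ4/Δ4 mice were below all *Phf21b*+/+ mice in the habenular and thalamic sums given next. The summed level of 14 medial habenula markers was 104 to 248 CPM in *Phf21b*Δ4/Δ4 mice and 398 to 606 CPM in *Phf21b*+/+ mice, and 12 of the 14 fell (*Slc5a7*, *Chrna3*, *Chrnb3*, *Chrnb4*, *Tac2*, *Gpr151*, *Gng8*, *Lrrc55*, *Pou4f1*, *Irx2*, *Chat* and *Slc18a3*), the last 4 at 3 reads or fewer in all *Phf21b*Δ4/Δ4 mice. The 8 listed thalamic markers summed to 182 to 226 CPM against 493 to 709 CPM, and 2 of them (*Tcf7l2* and *Zic1*) fell. The 8 choroid plexus markers summed to 247 to 377 CPM in *Phf21b*Δ4/Δ4 mice and 307 to 23500 CPM in *Phf21b*+/+ mice, where *Ttr* took 344581 reads in *Phf21b*+/+ replicate 7. *Xist* was present in all 6 mice and overlapped between the genotypes (90.3 to 216 against 86.9 to 145 CPM). The Y-linked genes *Ddx3y*, *Eif2s3y*, *Kdm5d* and *Uty* were not listed, where listing needed a CPM of 1 in 2 or more samples. The part of tissue composition in the results on the 9 genes was not tested, and in bulk tissue fewer cells of a type and less RNA per cell cannot be told apart.

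*Phf21b*, the targeted gene, was lower in every *Phf21b*Δ4/Δ4 mouse than in every *Phf21b*+/+ mouse, but the difference did not pass the test across all genes. The *Phf21b*Δ4/Δ4 mice had 2.15, 3.57 and 3.87 CPM from 51, 75 and 89 reads, and the *Phf21b*+/+ mice had 6.501, 5.23 and 6.47 CPM from 137, 124 and 144 reads. The lowest mouse was *Phf21b*Δ4/Δ4 replicate 2, and the groups did not overlap. The *Phf21b*Δ4/Δ4 mean was 3.20 ± 0.919 CPM (SD, n = 3) and the *Phf21b*+/+ mean 6.07 ± 0.724 CPM (SD, n = 3), so that 52.7% of the *Phf21b*+/+ level remained. The log2 fold change was -0.96 (SE 0.26, 95% interval -1.57 to -0.35) and the false discovery rate (FDR, the p-value adjusted by Benjamini-Hochberg over all 14477 genes) was 0.141 by limma. A call needed an FDR under 0.1 together with more than a 1.3-fold change. An exact permutation test over the 6 mice, 2-sided, gave p = 0.1, the smallest that 3 mice against 3 can give.

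The counts behind *Phf21b* were low, and counting error was part of the spread. The 95% exact Poisson intervals were 1.601 to 2.83, 2.81 to 4.48 and 3.11 to 4.76 CPM for the *Phf21b*Δ4/Δ4 mice and 5.46 to 7.69, 4.35 to 6.24 and 5.46 to 7.62 CPM for the *Phf21b*+/+ mice. The intervals of *Phf21b*Δ4/Δ4 replicates 3 and 6 therefore reached into that of *Phf21b*+/+ replicate 7. Without *Phf21b*Δ4/Δ4 replicate 6 the log2 fold change was -1.12 and passed the thresholds (FDR 0.0497 by limma), in a fit that called 19.5% of all genes. Leaving out any other mouse gave -1.06 to -0.70, none past the thresholds.

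None of the 9 genes was called by limma, or by limma voom on recovered reads, beside 1.22% of all 14477 genes (176 genes, 96 lower and 80 higher). At an unadjusted p under 0.01, 3 of the 9 genes (*Phf21b*, *Phf21a* and *Hdac1*) were lower and 0 higher, and the same 3 were those with p under 0.05. Across all genes 3.22% were lower and 6.81% differed in either direction at p under 0.01, and 23.6% differed at p under 0.05. In 4 of the 9 (*Phf21b*, *Phf21a*, *Hdac1* and *Hmg20b*) every *Phf21b*Δ4/Δ4 mouse was below every *Phf21b*+/+ mouse, which held for 16.0% of all genes, and in 0 of the 9 every *Phf21b*Δ4/Δ4 mouse was above, which held for 15.0% of all genes. The median log2 fold change of the 9 genes was -0.24, and that of all genes -0.02.

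**Figure D1:**
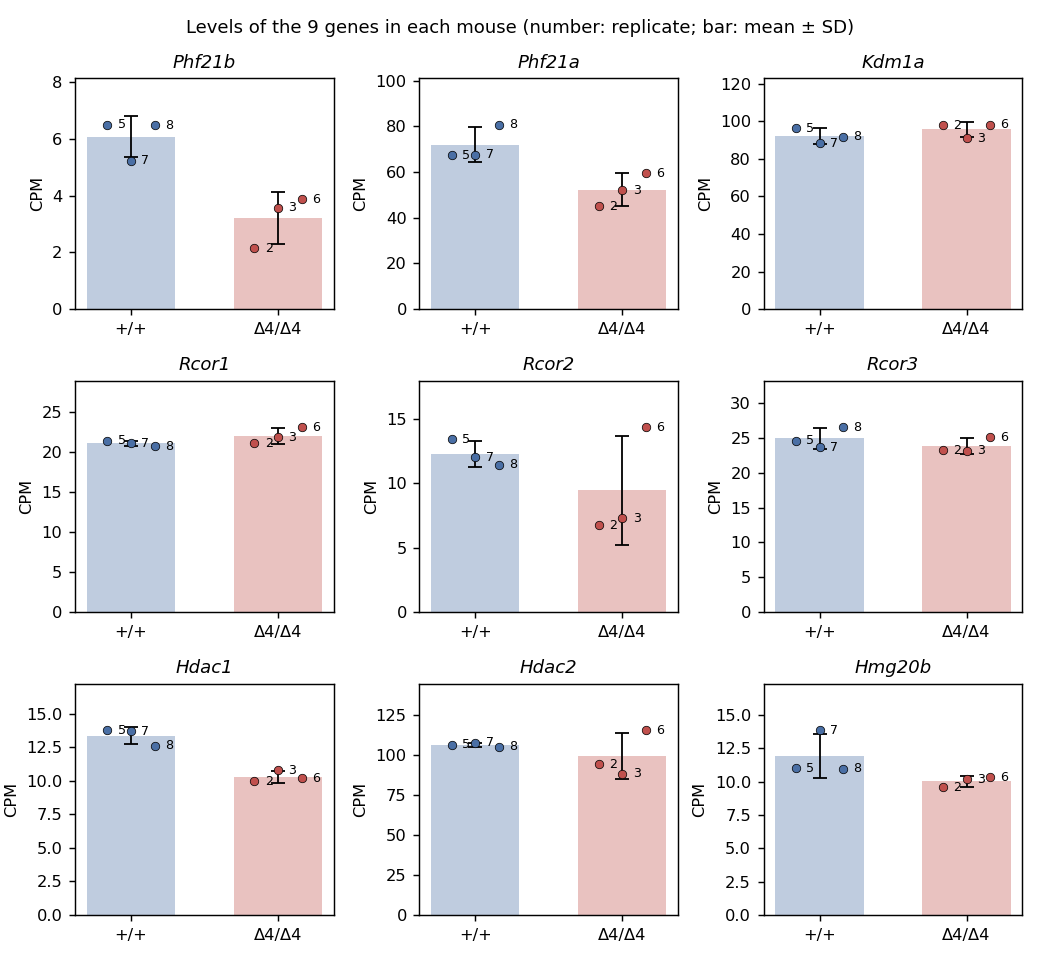
CPM (vertical axis, linear, from 0) of each of the 9 genes in each mouse, by genotype on the horizontal axis. Points are mice with their replicate number, bars are means and error bars SD (n = 3). The points of *Phf21b*, *Phf21a*, *Hdac1* and *Hmg20b* do not overlap between genotypes. *Phf21b*Δ4/Δ4 replicate 6 is the highest mouse for *Kdm1a* (98.3 CPM), *Rcor1* (23.05 CPM), *Rcor2* (14.4 CPM) and *Hdac2* (115 CPM).

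*Phf21a*, the paralog and the subunit that reads unmethylated lysine 4 (chr2:92093117-92364666, plus strand), was also lower in all *Phf21b*Δ4/Δ4 mice. It had 45.2, 52.1 and 59.5 CPM in the *Phf21b*Δ4/Δ4 mice and 67.5, 67.6 and 80.8 CPM in the *Phf21b*+/+ mice. The groups did not overlap, and the *Phf21b*Δ4/Δ4 mice stood in the same order as for *Phf21b*. Its means were 52.3 ± 7.15 CPM and 72.0 ± 7.66 CPM (SD, n = 3 each), 72.6% of the *Phf21b*+/+ level. The log2 fold change was -0.47 (SE 0.13, 95% interval -0.77 to -0.16, FDR 0.142 by limma), which did not pass the FDR threshold. These values rested on 1071 to 1367 reads in *Phf21b*Δ4/Δ4 mice and 1423 to 1798 reads in *Phf21b*+/+ mice. Without *Phf21b*Δ4/Δ4 replicate 6 it was called at -0.56 (FDR 0.0390).

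The longest run of bases that any transcript of *Phf21b* shared with any transcript of *Phf21a* was 14, against reads of 75 bases. The ratio of *Phf21a* to *Phf21b*, each as CPM per kb of merged exons, was 10.5, 7.27 and 7.65 in the *Phf21b*Δ4/Δ4 mice and 5.17, 6.43 and 6.22 in the *Phf21b*+/+ mice. The ratio was higher in every *Phf21b*Δ4/Δ4 mouse, with means of 8.46 ± 1.74 and 5.94 ± 0.673 (SD, n = 3; exact permutation p = 0.1, 2-sided, the smallest possible). *Phf21a* thus stayed the more abundant of the pair in all 6 mice.

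**Figure D2:**
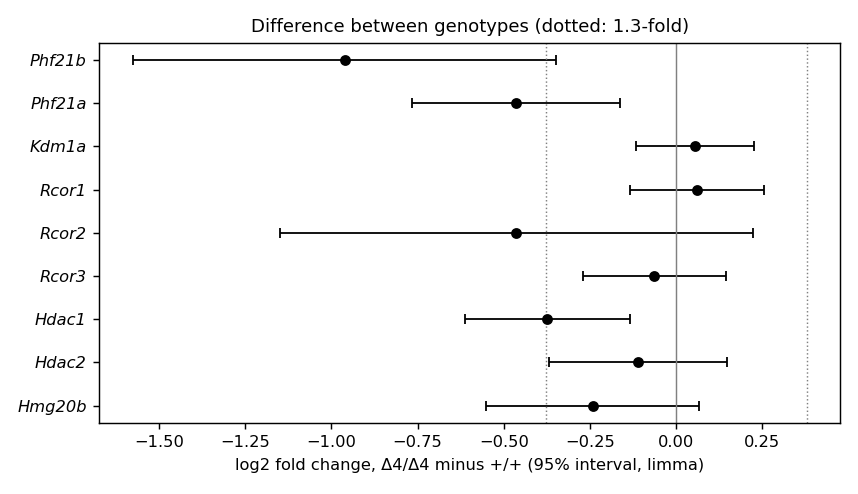
Log2 fold change (*Phf21b*Δ4/Δ4 minus *Phf21b*+/+, horizontal axis) of the 9 genes with its 95% interval from limma. Dotted lines mark a 1.3-fold change in each direction. The intervals of *Phf21b*, *Phf21a* and *Hdac1* lie below 0, and the other 6 span 0.

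*Kdm1a*, the demethylase itself (chr4:136550540-136602723, minus strand), had close to the same level in both genotypes. It ranged from 91.1 to 98.3 CPM in *Phf21b*Δ4/Δ4 mice and from 88.4 to 96.5 CPM in *Phf21b*+/+ mice. The means were 95.8 ± 4.08 and 92.2 ± 4.07 CPM (SD, n = 3 each), and the ranges overlapped. The log2 fold change was 0.05 (SE 0.07, FDR 0.645 by limma), and its 95% interval of -0.12 to 0.23 left out a 1.3-fold change in either direction. The sign was not stable, since quantile normalization gave -0.03.

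The deacetylases differed from each other in their values. *Hdac1* (chr4:129516104-129542713, minus strand) had 9.95, 10.8 and 10.2 CPM in the *Phf21b*Δ4/Δ4 mice and 13.8, 13.7 and 12.6 CPM in the *Phf21b*+/+ mice. All *Phf21b*Δ4/Δ4 mice were lower, within a narrow spread, with means of 10.3 ± 0.445 and 13.4 ± 0.640 CPM (SD, n = 3 each), or 77.2% of the *Phf21b*+/+ level. Its log2 fold change was -0.37 (SE 0.10, 95% interval -0.61 to -0.13, FDR 0.142 by limma), a 1.296-fold difference just under the fold threshold. *Hdac1* rested on 227 to 325 reads a mouse.

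*Hdac2* (chr10:36974544-37001889, plus strand), the other deacetylase of the complex, ranged from 88.3 to 115 CPM in *Phf21b*Δ4/Δ4 mice and from 105 to 108 CPM in *Phf21b*+/+ mice. The *Phf21b*Δ4/Δ4 mice lay on both sides of the *Phf21b*+/+ mice, and the log2 fold change was -0.11 (SE 0.11, 95% interval -0.37 to 0.15, FDR 0.537 by limma). The ratio of *Hdac2* to *Hdac1* per kb was 7.28, 6.29 and 8.73 in the *Phf21b*Δ4/Δ4 mice and 5.95, 6.05 and 6.41 in the *Phf21b*+/+ mice. This ratio overlapped between genotypes (exact permutation p = 0.2, 2-sided). The ratio of *Kdm1a* to *Hdac1* per kb did not overlap, at 6.55, 5.60 and 6.42 in *Phf21b*Δ4/Δ4 mice and 4.66, 4.29 and 4.83 in *Phf21b*+/+ mice (exact permutation p = 0.1, 2-sided, the smallest possible). It rests on the same *Hdac1* values as above. The ratios of *Rcor3* and of *Rcor1* to *Rcor2* per kb overlapped (exact permutation p = 0.4 and 0.3, 2-sided). The longest run shared by *Hdac1* and *Hdac2* transcripts was 17 bases.

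Among the CoREST scaffolds, *Rcor1* and *Rcor3* were at similar levels in the genotypes and *Rcor2* varied between *Phf21b*Δ4/Δ4 mice. *Rcor1* (chr12:111039351-111115901, plus strand) ranged from 21.1 to 23.1 CPM in *Phf21b*Δ4/Δ4 mice and from 20.7 to 21.4 CPM in *Phf21b*+/+ mice, with a log2 fold change of 0.06 (95% interval -0.13 to 0.25, FDR 0.655 by limma). *Rcor3* (chr1:192098546-192138062, minus strand) ranged from 23.2 to 25.1 and from 23.7 to 26.5 CPM, with a log2 fold change of -0.06 (95% interval -0.27 to 0.14, FDR 0.660 by limma). Both intervals left out a 1.3-fold change. Of the *Rcor3* exon bases, 8.34% overlapped genes on the opposite strand, and use of strand in counting is not given in the sources used here. For *Rcor1*, 0.932% of exon bases were shared with a gene on the same strand. The longest run shared between scaffold genes was 23 bases, between *Rcor1* and *Rcor3*.

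*Rcor2* (chr19:7267325-7275225, plus strand), a scaffold known from neural stem cells and embryonic stem cells, had 6.75, 7.29 and 14.4 CPM in the *Phf21b*Δ4/Δ4 mice and 13.4, 12.03 and 11.5 CPM in the *Phf21b*+/+ mice. Replicates 2 and 3 of *Phf21b*Δ4/Δ4 were below all *Phf21b*+/+ mice, while replicate 6 was the highest of all 6 mice. The means were 9.46 ± 4.24 and 12.3 ± 1.01 CPM (SD, n = 3 each), with a log2 fold change of -0.46 (SE 0.29, 95% interval -1.15 to 0.22, FDR 0.346 by limma). Without *Phf21b*Δ4/Δ4 replicate 6 the log2 fold change was -0.81 and it was called (FDR 0.0243), together with *Phf21b* and *Phf21a*.

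*Phf21b*Δ4/Δ4 replicate 6 was the highest of the *Phf21b*Δ4/Δ4 mice in 8 of the 9 genes, all but *Hdac1*. It was also the highest of them in 38.5% of all genes and in 9 of 12 hippocampal excitatory neuron markers. These 12 markers summed to 2510 to 3310 CPM in *Phf21b*Δ4/Δ4 mice and 2080 to 2920 CPM in *Phf21b*+/+ mice, with a median log2 fold change of 0.24. Past the thresholds 2 rose (*Fibcd1* and *Mpped1*) and 0 fell, beside 0.553% and 0.663% of all genes.

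Replicate 6 was the highest *Phf21b*Δ4/Δ4 mouse in most but not all of these hippocampal markers. The dentate granule cell genes *Prox1* and *C1ql2*, singled out after their values were seen, were low in *Phf21b*Δ4/Δ4 replicates 2 and 3 and higher in replicate 6, as *Rcor2* was, and this order was not particular to them. *Prox1*, a transcription factor of granule cells, had 50.4, 44.4 and 110 CPM in the *Phf21b*Δ4/Δ4 mice and 149, 115 and 134 CPM in the *Phf21b*+/+ mice (log2 fold change -1.08, FDR 0.155 by limma). *C1ql2*, a secreted protein of their mossy fibre synapses, had 25.6, 22.4 and 81.6 CPM against 111, 99.9 and 91.3 CPM (log2 fold change -1.48, FDR 0.157 by limma). *Neurod2*, a transcription factor of excitatory neurons more widely, had 67.8, 71.7 and 124 CPM against 119, 99.3 and 104 CPM, and *Neurod6* had 209, 143 and 301 CPM against 171, 132 and 176 CPM. The part of neuronal content in the values of the 9 genes was not tested.

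**Figure D3:**
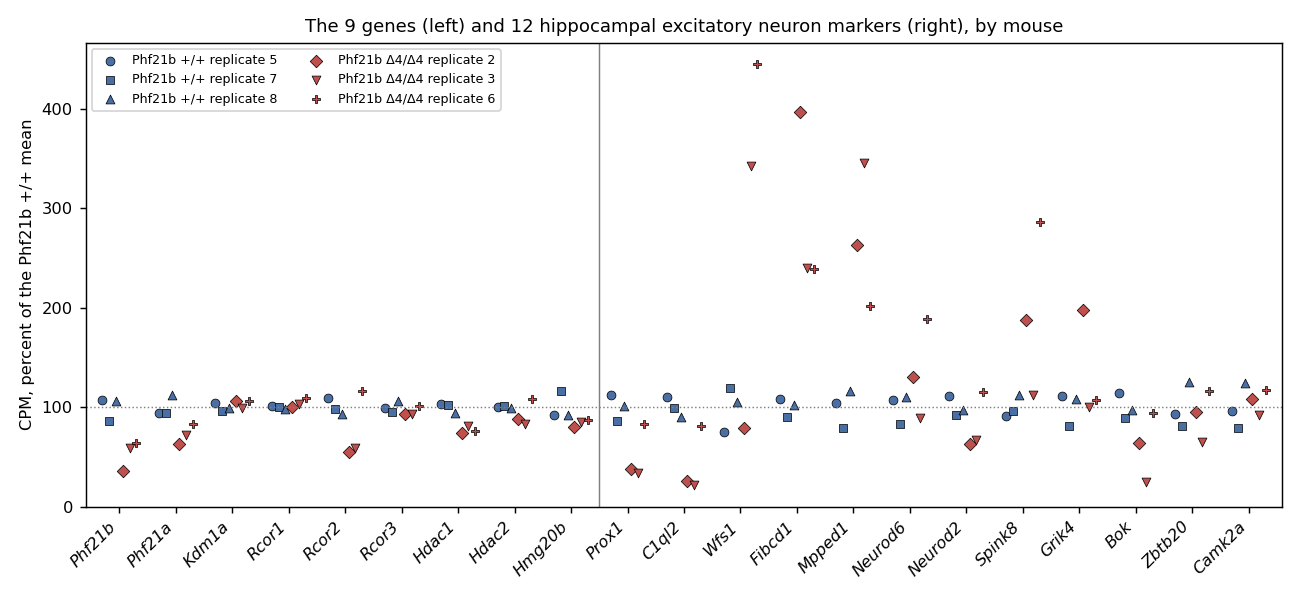
CPM in each mouse as a percentage of the *Phf21b*+/+ mean (vertical axis, linear, from 0, with a dotted line at 100) for the 9 genes, left of the grey line, and the 12 hippocampal excitatory neuron markers, right of it. *Phf21b*Δ4/Δ4 replicate 6 (plus signs) is the highest *Phf21b*Δ4/Δ4 mouse in 8 of the 9 genes and in 9 of the 12 markers, and the 12 markers lie on both sides of the *Phf21b*+/+ mean.

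*Hmg20b*, the HMG-box DNA-binding subunit (chr10:81346048-81350480, minus strand), had 9.57, 10.2 and 10.4 CPM in the *Phf21b*Δ4/Δ4 mice and 11.01, 13.8 and 10.97 CPM in the *Phf21b*+/+ mice. The groups did not overlap, and the highest value came from *Phf21b*+/+ replicate 7, the library rich in choroid plexus genes. The other *Phf21b*+/+ mice were also above every *Phf21b*Δ4/Δ4 mouse. The part of choroid plexus content in the *Hmg20b* values was not tested. The means were 10.04 ± 0.411 and 11.9 ± 1.65 CPM (SD, n = 3 each), with a log2 fold change of -0.24 (SE 0.13, 95% interval -0.55 to 0.07, FDR 0.289 by limma). Without *Phf21b*+/+ replicate 7 the log2 fold change was -0.13 (FDR 0.595).

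Levels were compared between genes as CPM per kb of merged exons. In *Phf21b*+/+ mice *Hdac2* was the most abundant at 23.8, followed by *Kdm1a* at 17.8 and *Phf21a* at 8.41 CPM per kb. *Rcor2*, *Hdac1*, *Hmg20b* and *Rcor1* followed at 3.90, 3.88, 3.79 and 3.71 CPM per kb, and each overlapped with its neighbour in this order over the 3 mice. *Rcor3* at 1.83 and *Phf21b* at 1.42 CPM per kb were the lowest by this length, and neither overlapped with the gene above it. The place of *Rcor3* depended on the length used, since its merged exons held 13622 bp and its longest transcript 3791 bp. With coding length or the longest transcript *Rcor3* stood at place 4, and *Rcor2* at places 8 and 7. *Phf21b* was also the lowest in *Phf21b*Δ4/Δ4 mice, at 0.750 CPM per kb, and with coding length or the longest transcript in place of merged exons. The targeted gene was therefore the least abundant of the 9 in this tissue in both genotypes.

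**Figure D4:**
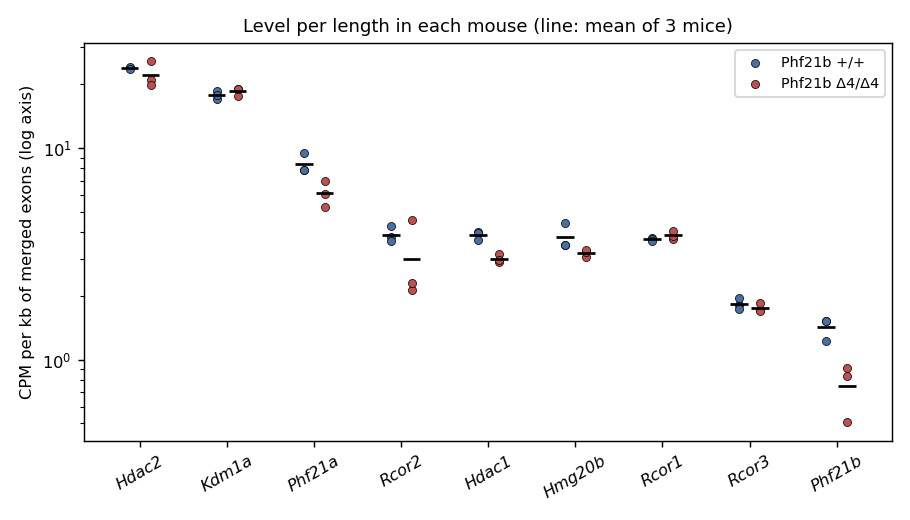
CPM per kb of merged exons (vertical axis, log scale) for the 9 genes, ordered by the *Phf21b*+/+ mean. Points are mice and short lines the means of 3 mice in each genotype. *Hdac2* and *Kdm1a* lie highest, 4 genes lie together near 3.71 to 3.90 CPM per kb in *Phf21b*+/+ mice, and *Phf21b* is lowest in both genotypes.

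Other proteins known to bind LSD1-CoREST or to work beside it showed no called difference. Of 23 such genes 20 were listed, and 0 of 20 were called by limma or limma voom, beside 1.22% of all genes. At an unadjusted p under 0.05, 1 was lower and 3 were higher (23.6% of all genes differed at that level), and the list's median log2 fold change was 0.02. The smallest p belonged to *Zmym3*, a zinc finger protein found with CoREST, at 115 ± 9.18 CPM in *Phf21b*Δ4/Δ4 and 93.3 ± 5.36 CPM in *Phf21b*+/+ mice (n = 3 each, SD, with a log2 fold change of 0.30, FDR 0.149). *Kdm1b*, the second LSD demethylase of the mouse, stood at 14.5 ± 0.501 and 17.5 ± 1.37 CPM (SD, n = 3 each; log2 fold change -0.27, FDR 0.181). *Ehmt2*, a methyltransferase for lysine 9 of histone H3, stood at 175 ± 5.92 and 154 ± 6.56 CPM (SD, n = 3 each; log2 fold change 0.19, FDR 0.185). Every *Phf21b*Δ4/Δ4 mouse was above every *Phf21b*+/+ mouse in 5 of the 20 genes and below in 1 (*Kdm1b*), where all genes gave 15.0% and 16.0%.

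Among 25 neuronal genes known as targets of REST and CoREST, more were higher than lower in *Phf21b*Δ4/Δ4 mice. The values were positive for 22 and negative for 3, with a median log2 fold change of 0.44, beside -0.02 for all genes. Past the thresholds 2 of 25 rose and 0 fell, beside 0.553% and 0.663% of all genes. *Vgf*, a secreted neuropeptide precursor, had 102, 119 and 86.8 CPM in the *Phf21b*Δ4/Δ4 mice and 63.1, 45.5 and 54.7 CPM in the *Phf21b*+/+ mice. It rose without overlap of the groups (log2 fold change 0.91, SE 0.16, FDR 0.0838 by limma). *Nrxn3*, a presynaptic adhesion protein, rose from 159 ± 21.9 to 244 ± 9.44 CPM (SD, n = 3 each; log2 fold change 0.62, SE 0.11, FDR 0.0931 by limma). *Grin2b*, an NMDA receptor subunit, had 1234 ± 179 CPM in *Phf21b*Δ4/Δ4 and 632 ± 123 CPM in *Phf21b*+/+ mice (n = 3 each, SD, with a log2 fold change of 0.97) and missed the threshold at an FDR of 0.1003, while centring on medians and pseudocounts of 0.1 and 1 brought it past the threshold.

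For 13 of the 25 targets every *Phf21b*Δ4/Δ4 mouse was above every *Phf21b*+/+ mouse, and for 2 (*Scn3a* and *Calb1*) every *Phf21b*Δ4/Δ4 mouse was below, where all genes gave 15.0% and 16.0%. With genes of a low mean level left out of the fit (mean log2 CPM under 1), 0 of the 25 were called. Leaving out any mouse but *Phf21b*Δ4/Δ4 replicate 6 gave 0 calls among the 25, and leaving out that replicate gave 15 (14 higher and 1 lower), in a fit that called 19.5% of all genes. The 25 targets are neuronal genes, and the 7 interneuron markers also had a positive median, 0.62, with *Gad2* called higher. The part of neuronal content in the values of the targets was not tested.

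**Figure D5:**
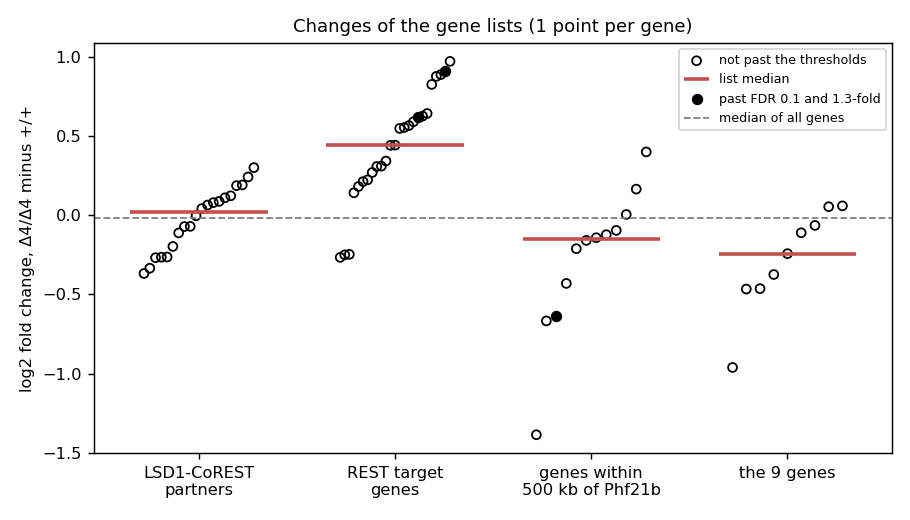
Log2 fold change (*Phf21b*Δ4/Δ4 minus *Phf21b*+/+, vertical axis) of each gene in 4 lists on the horizontal axis, where filled points are the called genes (FDR under 0.1 and over 1.3-fold). Red lines are list medians (0.02 for LSD1-CoREST partners, 0.44 for REST targets, -0.15 for genes within 500 kb of *Phf21b* and -0.24 for the 9 genes), and the dashed line is the median of all genes (-0.02).

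The genes around *Phf21b* were examined because the mice carry an edited chromosome 15. Within 500 kb of *Phf21b* 12 other genes were listed, and 1 of 12 fell past the thresholds, beside 0.663% of all genes called lower. This was *Shisal1*, 338 kb away, with 71.0, 59.4 and 65.1 CPM in the *Phf21b*Δ4/Δ4 mice and 113, 92.8 and 98.2 CPM in the *Phf21b*+/+ mice. Its groups did not overlap (log2 fold change -0.63, SE 0.11, FDR 0.0802 by limma), and the call was lost on leaving out any of the 6 mice but *Phf21b*Δ4/Δ4 replicate 6. *Rtl6*, a retrotransposon-derived gene 228 kb away, had 92.9 ± 8.13 and 70.4 ± 7.24 CPM (SD, n = 3 each; log2 fold change 0.40, FDR 0.141). *Ribc2*, 276 kb away, rested on 5 to 9 reads in *Phf21b*Δ4/Δ4 and 9 to 32 reads in *Phf21b*+/+ mice (log2 fold change -1.39, FDR 0.205). The nearest listed protein-coding genes, *Nup50* at 67.4 kb and *Prr5* at 81.7 kb, overlapped between genotypes, at 43.0 to 45.8 against 44.8 to 50.8 CPM and at 2.04 to 3.29 against 2.74 to 3.70 CPM.

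The genes whose values followed *Phf21b* most closely over the 6 mice were found by Pearson's r of log2 CPM among the 12965 genes whose log2 CPM averaged 1 or more. This is a description without a test, since the mice fall into 2 genotypes and share libraries and depth across genes. The highest r belonged to *Kcnh5*, a voltage-gated potassium channel (r = 0.999), followed by *Mplkip* (0.991), *Akap7*, an anchor of protein kinase A (0.991), *Smc5*, of the SMC5/6 complex (0.991), and *Pabpn1*, a nuclear poly(A)-binding protein (0.991). *Kcnh5* had 7.84, 13.8 and 14.7 CPM in the *Phf21b*Δ4/Δ4 mice and 24.8, 20.6 and 25.0 CPM in the *Phf21b*+/+ mice, with *Phf21b*Δ4/Δ4 replicate 2 lowest and *Phf21b*+/+ replicate 7 the lowest *Phf21b*+/+ mouse, as for *Phf21b*. The lowest r belonged to *Phf13*, another PHD finger gene (-0.991), *Fkbp15* (-0.988), *Nupl2*, a nucleoporin (-0.988), *Farsb*, a subunit of phenylalanyl-tRNA synthetase (-0.988), and *Rbm18* (-0.986).

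Among the other 8 of the 9 genes, *Phf21a* followed *Phf21b* most closely (r = 0.946, place 123 of the 12965 genes). *Hdac1* came next (0.863, place 621), then *Rcor2* (0.743), *Rcor3* (0.647), *Hmg20b* (0.596) and *Hdac2* (0.527). *Rcor1* and *Kdm1a* had negative values of -0.215 and -0.412.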

How the data were processed

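Hippocampal RNA of 6 mice (3 *Phf21b*Δ4/Δ4, 3 *Phf21b*+/+, grouped by genotype labels) was sequenced as single-end 75 bp reads from 500 ng of ribosome-depleted total RNA. The authors trimmed reads with Trimmomatic 0.39, aligned them to GRCm38 with STAR 2.7.3a, counted them with featureCounts (Subread 1.6.4), kept genes that reached a CPM of 1 in 2 or more samples, and deposited log2 CPM values made with edgeR. Pooling or batches are not given in the sources used here. The deposited log2 values were turned back into CPM and reads (100.0% whole within 0.1 reads, after a prior count of 0.1). Genotypes were compared with limma 3.58.1 in R 4.3.3 (lmFit, eBayes with trend) on all 14477 genes, 2-sided, with Benjamini-Hochberg adjustment and calls at FDR under 0.1 and a fold change above 1.3. edgeR was not used on these values, which are not counts. P-values measure the spread between these mice. Poisson intervals cover counting error only, and PCR copies are not told apart.

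The members and lists were chosen with earlier results of these data known. Named were all 9 genes, the called genes of each list, marker lists' genes at 3 reads or fewer in a genotype, the 3 smallest p of the partner, target and neighbour lists, and the 5 highest and 5 lowest correlations with *Phf21b*. *Scn3a*, *Calb1*, *Prox1*, *C1ql2*, *Neurod2*, *Neurod6*, *Grik4*, *Gfap*, *Ttr*, *Nup50* and *Prr5* were named after their values were seen. The sex-linked genes were named as a whole list. Coordinates, lengths and exon sequences come from GENCODE M21, in which 98.8% of symbols were found, while the files used another release of the same build. Alternatives covered prior variance, mouse weights, filters, pseudocounts of 1 and 0.1, scaling, voom, thresholds and leaving out each mouse. The test was also run on simulated counts with the same dispersion for every gene and no differences in tissue content. That run therefore cannot show how the test behaves in libraries as unlike as these.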

Additional observations from a re-analysis of the deposited data

How the results depend on the processing

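The count of genes called, 176 across all genes, became 3549 (2066 lower, 1483 higher) with arrayWeights, 101 with only genes whose log2 CPM averaged 1 or more, 75 with the same prior variance for all genes, 25 at FDR under 0.05, and 9 to 2830 on leaving out 1 mouse, lowest without *Phf21b*+/+ replicate 8 and highest without *Phf21b*Δ4/Δ4 replicate 6. Of the 9 genes, 0 were called, and 3 with arrayWeights (*Phf21b* -1.32, *Phf21a* -0.69 and *Rcor2* -0.66 on the log2 scale, where 24.5% of all genes were called), and 0 to 3 on leaving out 1 mouse. arrayWeights gave *Phf21b*+/+ replicate 8 the weight 4.63 and *Phf21b*Δ4/Δ4 replicate 6 the weight 0.343. *Phf21b* was -1.12 to -0.70 on leaving out 1 mouse, and over 17 alternatives its FDR ran from 0.0122 to 0.356. *Kdm1a* reversed to -0.030 under quantile normalization, and none of the other 8 genes changed sign. Of the partners 1 (*Rreb1*, named after its values were seen) was called with arrayWeights, against 0. Calls among REST targets, 2 in all, became 14 with arrayWeights, 3 (*Grin2b* added) with centring on medians and with pseudocounts of 0.1 and of 1, 1 with quantile normalization and with voom (*Vgf* each time), 0 with the filter on mean log2 CPM, the same prior variance or FDR under 0.05, and 0 to 15 on leaving out 1 mouse. The 1 call near *Phf21b* became 4 with arrayWeights, 0 with centring on medians, the same prior variance or FDR under 0.05, and 0 to 3 on leaving out 1 mouse. In the order of levels 4 genes changed place with coding length, 3 with the longest transcript and 4 with the *Phf21b*Δ4/Δ4 mean. Causes were not tested. The paper describes its mice in general as littermates. No paired analysis was possible because the litter of each mouse is not given in the sources used here. The 51 to 144 *Phf21b* reads a mouse limit the precision of its value.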

Other observations

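Other cell type lists were read for the same mice, and counts at an unadjusted p under 0.05 stand beside 23.6% of all genes. Counts past the thresholds stand beside 0.553% of all genes for those that rose and 0.663% for those that fell. All 7 interneuron markers had positive values (median log2 fold change 0.62), with a summed level of 688 to 830 CPM in *Phf21b*Δ4/Δ4 and 468 to 531 CPM in *Phf21b*+/+ mice, and 1 (*Gad2*) rose past the thresholds. By limma, 6 of these 7 were higher and 0 lower at an unadjusted p under 0.05. In 6 of the 7 every *Phf21b*Δ4/Δ4 mouse was above every *Phf21b*+/+ mouse, which held for 15.0% of all genes. The 5 endothelial markers also had positive values (median 0.43, 120 to 151 against 85.2 to 127 CPM), with 0 called by limma and 3 at an unadjusted p under 0.05. The 9 markers of progenitors and immature neurons summed to 136 to 154 CPM in *Phf21b*Δ4/Δ4 and 158 to 179 CPM in *Phf21b*+/+ mice, with 0 called by limma and 3 lower at an unadjusted p under 0.05. Of 8 astrocyte markers *Aqp4*, the water channel of astrocyte end feet, fell, and 2 were lower at an unadjusted p under 0.05, while the summed level overlapped (6200 to 7380 against 5560 to 7000 CPM). The second was *Gfap*, an intermediate filament of astrocytes, with 317, 231 and 443 CPM in the *Phf21b*Δ4/Δ4 mice and 497, 475 and 589 CPM in the *Phf21b*+/+ mice (log2 fold change -0.70, FDR 0.165 by limma, groups not overlapping). The 8 oligodendrocyte markers (5870 to 8930 against 7080 to 9810 CPM) and the 7 microglial markers (424 to 464 against 421 to 447 CPM) overlapped in summed level, with 0 called by limma in either list and 0 and 1 at an unadjusted p under 0.05. Of the 8 choroid plexus markers *Otx2* fell past the thresholds.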
